A study of Homo sapiens with 6 samples.

Results

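The 48 genes described here carry out and control cell division: the cyclins and kinases of mitosis, the spindle checkpoint, the kinetochore, the chromosomal passenger complex, the spindle, cytokinesis, and condensin with DNA topoisomerase II. They were chosen by their gene symbols, as named parts of this machinery, and not by a measured value. Earlier results of these data were known when the list was set. All 48 were measured, among 19775 genes with a probe set of their own symbol. Expression was measured on Affymetrix arrays in K562, an established human chronic myeloid leukaemia line. The treated group was 3 arrays of cells harvested after 12 h with calactin, a plant cardenolide that blocks the sodium pump, labelled as a dose of 0.15 mM. The comparison group was 3 arrays of untreated cells at the same 12 h. Samples within a group are labelled as biological replicates, and no vehicle is named for the untreated cells.

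Most of these genes are switched on late in the cell cycle. MuvB complexes, which carry B-MYB and FOXM1 in dividing cells and E2F and retinoblastoma-family proteins in resting ones, bind a short promoter element called the cell cycle genes homology region, or CHR, often with CCAAT boxes upstream that bind the factor NF-Y. CDK1 with a cyclin then drives entry into mitosis, the checkpoint holds back anaphase until every kinetochore is attached to the spindle, and separase finally cuts the cohesin rings that join sister chromatids. K562 is a fast-growing line, in which a large share of cells is cycling at any time.

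The members' promoters are shown first because most hold the letters of elements known to act in late cell cycle genes. RefSeq windows of 250 bases before to 50 bases after the transcription start (build GRCh38.p14) were given for 41 of the 48 members; FOXM1, AURKA, BUB3, TTK, BIRC5, TPX2 and RACGAP1 had none. The lines below give, 5′ to 3′, the 100 bases before the start for the members called higher and called lower in the test described further on that had the smallest p-values, a single window and a CHR or CCAAT match, and for CCNB1. Capitals mark CHR letters (TTTGAA or TTCGAA) and CCAAT letters, each on either strand. E2F letters (TTTGGCGC, TTTCCCGC or TTTCGCGC, either strand) were searched too and lie in none of these stretches.
ANLN: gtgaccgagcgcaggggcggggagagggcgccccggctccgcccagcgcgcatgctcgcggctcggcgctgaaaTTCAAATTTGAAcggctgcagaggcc
SGO1: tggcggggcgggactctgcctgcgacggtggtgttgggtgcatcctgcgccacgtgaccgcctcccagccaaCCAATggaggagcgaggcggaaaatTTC
CDCA8: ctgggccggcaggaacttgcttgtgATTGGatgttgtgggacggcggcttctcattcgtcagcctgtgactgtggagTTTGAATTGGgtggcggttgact
PLK1: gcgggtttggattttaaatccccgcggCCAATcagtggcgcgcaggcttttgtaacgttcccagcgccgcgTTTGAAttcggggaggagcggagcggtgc
NDC80: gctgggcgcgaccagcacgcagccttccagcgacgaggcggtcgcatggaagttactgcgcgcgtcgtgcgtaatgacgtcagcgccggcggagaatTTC
BUB1: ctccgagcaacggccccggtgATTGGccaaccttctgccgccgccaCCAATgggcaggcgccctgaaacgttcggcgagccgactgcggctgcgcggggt
ESPL1: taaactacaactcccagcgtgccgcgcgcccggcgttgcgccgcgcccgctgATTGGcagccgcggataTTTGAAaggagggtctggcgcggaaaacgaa
NEK2: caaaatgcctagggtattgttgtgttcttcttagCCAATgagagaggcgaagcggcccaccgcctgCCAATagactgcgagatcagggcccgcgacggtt
CCNB1: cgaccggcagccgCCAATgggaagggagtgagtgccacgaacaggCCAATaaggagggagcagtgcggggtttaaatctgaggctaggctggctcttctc

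Their positions are chr7:36389762-36389861, plus strand, for ANLN; chr3:20186207-20186306, minus strand, for SGO1; chr1:37692416-37692515, plus strand, for CDCA8; chr16:23678789-23678888, plus strand, for PLK1; and chr18:2571457-2571556, plus strand, for NDC80. The stretch of BUB1 is chr2:110678064-110678163, minus strand, that of ESPL1 chr12:53268199-53268298, plus strand, that of NEK2 chr1:211675622-211675721, minus strand and that of CCNB1 chr5:69167050-69167149, plus strand. ANLN holds a CHR on each strand, side by side. In PLK1 and ESPL1 a CCAAT box lies upstream of a CHR. The last 3 capitals of SGO1 and NDC80 are the first bases of CHR letters that run across the start, and the CHR of BUB1 lies just after it, outside the printed stretch. In CDCA8 the CHR and the CCAAT letters next to it share a base. NEK2 and CCNB1 hold CCAAT letters and no CHR letters in their windows.

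CHR letters were in the window of 30 of 41 members (73.2%), against 19.5% of all 27305 genes with a window. CCAAT letters were in 31 of 41 (75.6%), against 39.7%, and both kinds in 22 of 41 (53.7%), against 7.85%. E2F letters were in 3 of 41 (7.32%), against 3.3%. CHR letters lay within 50 bases of the start in 24 of 41 members (58.5%), against 6.24% of all genes. In a list of 37 measured genes of the G1/S transition and DNA replication, used below for comparison, 33 had a window. CHR letters were in 5 of these (15.2%), CCAAT letters in 22 (66.7%), both kinds in 4 (12.1%) and E2F letters in 17 (51.5%). In a list of 138 other measured genes of mitosis, also used below, 120 had a window. There CHR letters were in 58 (48.3%), CCAAT letters in 72 (60%), both kinds in 36 (30%) and E2F letters in 21 (17.5%). These shares describe the letters in the windows, with no test. A gene with several windows, as 8 members have, was counted once if any window matched.

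**Figure D1:**
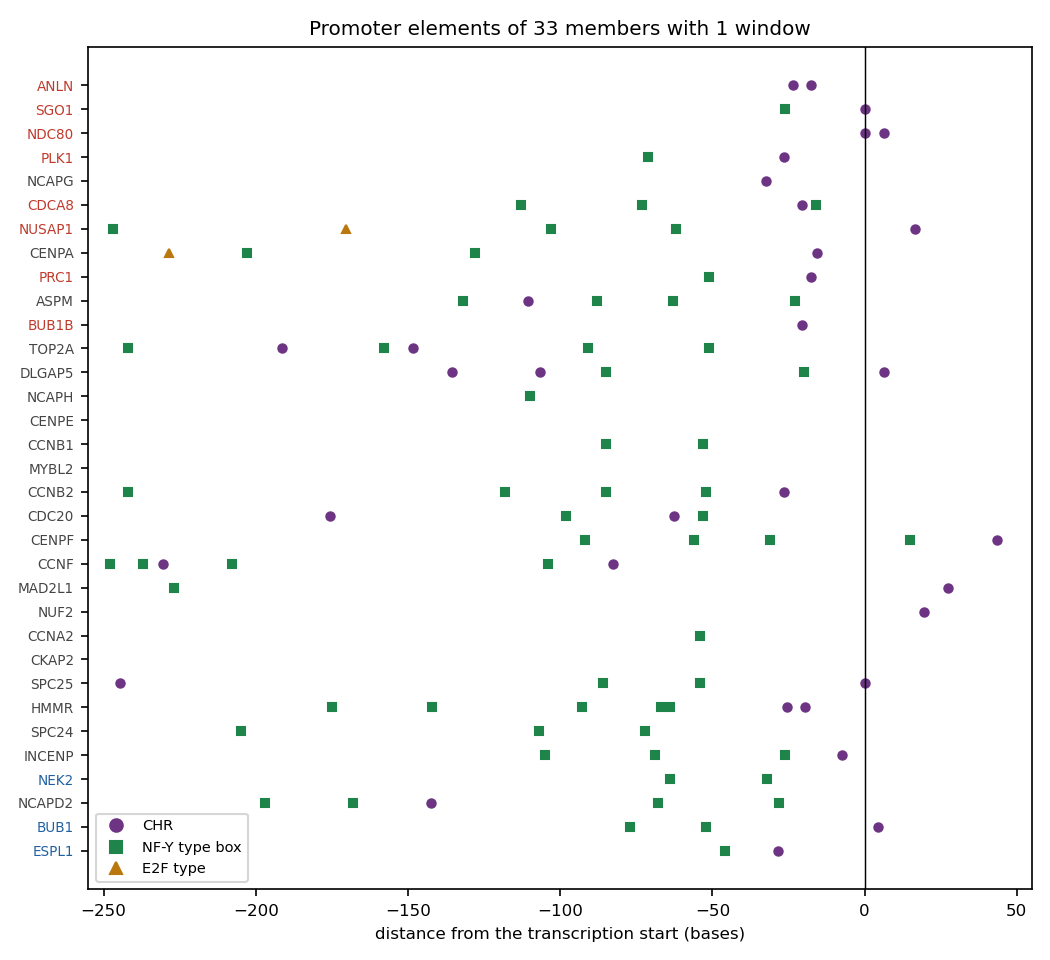
Position of promoter letters in the 33 members with a single window. The x axis is the distance from the transcription start in bases, from 250 before to 50 after; each point is the centre of a match on either strand, circles for CHR, squares for CCAAT and triangles for E2F letters. Members are ordered by fold change from highest at the top to lowest, with names in red where called higher with calactin and blue where called lower. Circles gather near the start, where 24 of all 41 members with a window have one within 50 bases.

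Deposited intensities, linear and on a scale the authors set, were taken as log2(intensity + 16), and limma compared the 3 calactin with the 3 untreated arrays, two-sided, with Benjamini-Hochberg adjustment of the p-values across the 19775 genes. A gene with an adjusted p under 0.05 is called higher or lower with calactin. A difference is calactin minus untreated on that log2 scale, followed by its standard error, and it understates the change of dim genes.

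With calactin, 14 of the 48 members were called higher and 3 lower, while 31 were not called. Of all genes, 21.4% were called, 4.93% higher and 16.5% lower, so that the members' shares, 29.2% higher and 6.25% lower, lay the other way round. The members were bright: their median intensity was 1542 to 1958 per array, against 40.9 to 46.1 for all single-symbol probe sets. With genes above the median signal tested alone, 17 members were called higher and 3 lower. Of those bright genes, 11.5% were higher and 34% lower. The members' median difference was 0.125, against -0.059 for all genes. No member was called at 2-fold or more, as 0.531% of all genes were upward and 4.4% downward: the highest was ANLN at 0.82 and the lowest ESPL1 at -0.71. The 3 calactin arrays lay wholly above the 3 untreated arrays for 20 members and wholly below them for 7. Of all genes, 34.7% had groups that did not overlap, 10.3% with calactin above and 24.4% with calactin below. RNA was taken from whole cultures, so a change in the share of cells in mitosis and a change in RNA per cell cannot be told apart. These directions are relative to the deposited scale. Scaling to the hybridisation spikes gave 7 members higher and 0 lower, when 2.82% of all genes were higher and 7.04% lower. With poly-A spike scaling, fitted with replicate number as a block, 46 members were higher and 0 lower; most genes were then higher too (60.2%, with 5.43% lower), so that members and all genes leaned the same way. The poly-A scaling moved the median of all genes to 0.514 and of the members to 0.698. Such a shift moves every gene alike, so it leaves the members' median 0.184 above that of all genes by construction. Scaled on linear intensities instead, where genes move unequally, that distance was 0.217 with the hybridisation spikes and 0.382 with the poly-A spikes. There 16 was added after the scaling, so dim genes moved less than bright ones, and the members were bright. With the poly-A spikes the median of all genes was then 0.297 and that of the members 0.679. These distances therefore depend on brightness and were not tested.

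**Figure D2:**
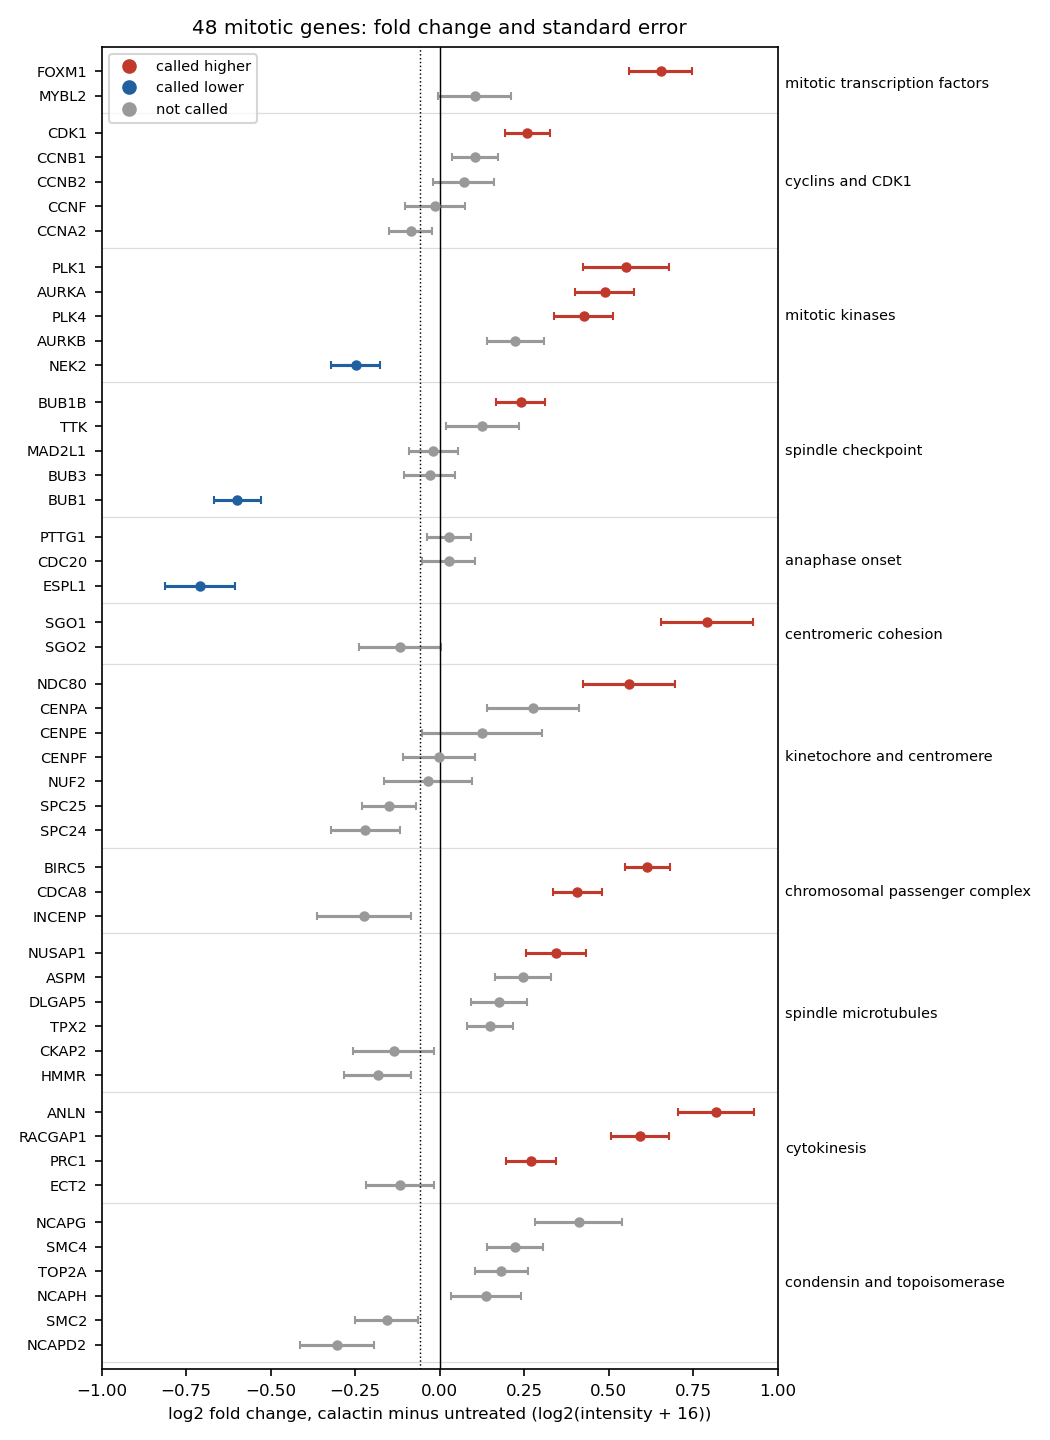
Difference of each of the 48 members, calactin minus untreated, in log2(intensity + 16), with its standard error from limma (3 arrays in each group), by role. Red points were called higher, blue points lower and grey points not called; the dotted line is the median of all genes at -0.059. The red points spread over 9 of 11 roles, from 0.24 for BUB1B to 0.82 for ANLN, and the blue points are NEK2, BUB1 and ESPL1; with poly-A spike scaling NEK2 was higher and BUB1 and ESPL1 were not called.

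Of the 2 transcription factors, FOXM1 rose and MYBL2 was not called. FOXM1, which switches on late cell cycle genes, read 681, 766 and 699.9 with calactin and 443, 433 and 471 untreated, in the order of replicates 1, 2 and 3. Each calactin array was well above each untreated one. The difference was 0.65 ± 0.094 (1.57-fold, adjusted p = 0.0013), and the call was kept in each of the 23 alternatives run. FOXM1 has 1 probe set, with an identifier that marks shared sequence, so the other probe set rules could not change its difference. MYBL2, the B-MYB subunit added to MuvB for late gene activation, differed by 0.10 ± 0.11 (95% interval -0.15 to 0.35), with overlapping arrays.

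Of CDK1 and the 4 cyclins, only CDK1 was called. CDK1, the kinase that drives mitotic entry, read 5524, 5639 and 5853 with calactin and 4426, 5015 and 4789 untreated. All calactin arrays were the higher ones, by 1.2-fold in the fit (0.26 ± 0.066; adjusted p = 0.022). Its other bright probe sets gave 0.42 ± 0.082 and 0.40 ± 0.080, both called higher when every probe set was tested. The CDK1 call was lost without calactin replicate 2 (0.26), calactin replicate 3 (0.24), untreated replicate 1 (0.21) or untreated replicate 3 (0.27), and with hybridisation spike scaling (0.36) or eBayes without a trend (0.26). CCNB1, the cyclin B1 partner of CDK1, read 4401, 4267 and 4672 with calactin and 3878, 4347 and 4185 untreated. Its groups overlapped, because the second untreated array lay above the second calactin array, and the difference was 0.10 ± 0.069 (95% interval -0.052 to 0.26; adjusted p = 0.37). Its second probe set read 774, 715 and 787 with calactin and 862, 899 and 1012 untreated. There every calactin array was lower (-0.28 ± 0.092), without passing the threshold over 41091 probe sets (adjusted p = 0.079), so that the sign for CCNB1 depends on the probe set. CCNA2, the cyclin A2 of S phase and early mitosis, read 3114, 3019.8 and 2843 with calactin and 3143, 3151 and 3232 untreated. Every calactin array was below every untreated one, yet by a small amount that missed the threshold (-0.086 ± 0.064; 95% interval -0.23 to 0.060; adjusted p = 0.44). CCNB2 and CCNF were not called either, at 0.071 and -0.015, and their arrays overlapped.

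Among the 5 mitotic kinases, PLK1, AURKA and PLK4 rose, NEK2 fell, and AURKB missed the threshold. PLK1, which acts in mitotic entry, centrosome maturation and cytokinesis, read 1791, 1749 and 1486 with calactin and 1360.2, 1076 and 999 untreated. The lowest calactin array was above the highest untreated array by a narrow margin, and the untreated arrays were widely spread. The PLK1 difference was 0.55 ± 0.13 (1.46-fold; adjusted p = 0.014). AURKA, the spindle pole kinase, read 3556, 3546 and 4048 with calactin and 2401, 2747 and 2796 untreated. The calactin arrays did not reach down to the untreated ones, and the difference was 0.49 ± 0.086 (1.4-fold; adjusted p = 0.0037). Both bright AURKA probe sets carry an identifier that marks shared sequence. The remaining one, which is dim, gave -0.0084 ± 0.22, so that AURKA read -0.008 when probe sets without that mark were taken first.

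PLK4, which starts centriole duplication, read 1019, 1127 and 986 with calactin and 743, 812 and 764 untreated. Its groups were apart, with a difference of 0.42 ± 0.088 (adjusted p = 0.0087). NEK2, a kinase that splits centrosomes before mitosis, read 1803, 1753 and 1893 with calactin and 2057, 2160.4 and 2269.7 untreated. Every calactin array was lower, by 1.19-fold in the fit (-0.25 ± 0.073; adjusted p = 0.040), and its other probe set gave -0.31 ± 0.088. AURKB, the kinase of the chromosomal passenger complex, read 669.9, 706 and 703 with calactin and 605, 585 and 584 untreated. Its groups did not overlap, but the difference of 0.22 ± 0.084 (95% interval 0.031 to 0.41) had an adjusted p of 0.10; it was called with quantile normalization (0.37) and with median centring (0.31).

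Several of these kinase calls were lost when an array was left out, which leaves fewer samples, or when the scaling or the probe set rule was changed. PLK1 was not called once calactin replicate 1 (0.50), calactin replicate 2 (0.52) or untreated replicate 3 (0.46) was left out. NEK2 was not called in 5 of 6 fits that left out an array: without calactin replicate 1 (-0.24), 2 (-0.22) or 3 (-0.28), and without untreated replicate 2 (-0.25) or 3 (-0.21). NEK2 was also not called with quantile normalization (-0.15), median centring (-0.16), hybridisation spike scaling (-0.15) or eBayes without a trend (-0.25), and it read 0.32 with poly-A spike scaling. The PLK4 and AURKA calls were lost with hybridisation spike scaling, at 0.53 and 0.59, and when all probe sets of a gene were averaged, at 0.38 and 0.33.

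In the spindle checkpoint, which holds anaphase back, 1 of 5 members rose and 1 fell. BUB1, a kinase that gathers checkpoint proteins at the kinetochore, read 1978, 1777 and 1867 with calactin and 2754, 2915 and 2861 untreated. All 3 calactin arrays were far below the untreated arrays. BUB1 fell by 0.60 on the log2 scale (SE 0.070; 1.51-fold; adjusted p = 5.00e-04), and its second bright probe set was called lower as well (-0.44 ± 0.12). The other 3 BUB1 probe sets, all dim, were not called. Averaging all 5 gave -0.12 and no call, hybridisation spike scaling gave -0.50 and no call, and poly-A spike scaling -0.025. BUB1B, which encodes BUBR1, a part of the complex that inhibits the anaphase-promoting complex, read 2656, 2489 and 2542 with calactin and 2096, 2096 and 2320.3 untreated. Its calactin arrays were the higher ones, with a difference of 0.24 ± 0.072 and an adjusted p of 0.046, close to the threshold. The BUB1B call was lost when calactin replicate 1 (0.21), 2 (0.26) or 3 (0.24) was left out, and likewise untreated replicate 1 (0.215) or 2 (0.21). It was also lost with hybridisation spike scaling (0.34) and eBayes without a trend (0.24). BUB3, MAD2L1 and TTK, the other checkpoint members, overlapped between the groups, at -0.030, -0.019 and 0.13. A further MAD2L1 probe set was called lower (-0.49 ± 0.14), while the other 2 were not called.

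At anaphase onset, ESPL1 fell and its partners were not called. ESPL1 encodes separase, the protease that opens cohesin, and read 446, 496 and 409 with calactin and 787, 722 and 724 untreated. Every calactin array was well below every untreated array. The fall was 1.64-fold (-0.71 ± 0.10; adjusted p = 0.0014), and the second ESPL1 probe set gave nearly the same value (-0.71 ± 0.11). The ESPL1 call was lost with hybridisation spike scaling (-0.61) and with poly-A spike scaling (-0.14). PTTG1, or securin, which keeps separase inactive, differed by 0.026 ± 0.065 (95% interval -0.12 to 0.17), and CDC20, the activator of the anaphase-promoting complex, by 0.026 ± 0.077 (95% interval -0.15 to 0.20).

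The shugoshins protect cohesin at the centromere, and SGO1 gave opposite readings on its 2 probe sets. The brighter one, which stands for the gene, read 633, 691 and 556 with calactin and 376, 399 and 296 untreated. Its calactin arrays were all higher (0.79 ± 0.14; 1.73-fold; adjusted p = 0.0034). The dimmer one read 80.7, 67.5 and 89.8 with calactin and 153, 147 and 197 untreated. There every calactin array was lower (-0.93 ± 0.16; adjusted p = 0.0053 over 41091 probe sets), and the mean of both was -0.069 and not called. No other member had probe sets called in opposite directions. SGO2 was not called (-0.12 ± 0.12).

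In the kinetochore and centromere group, 1 of 7 members was called. NDC80, the microtubule-binding subunit of the complex named after it, read 2509.9, 3051 and 3057 with calactin and 1585, 2259 and 2023 untreated. The lowest calactin array was above the highest untreated one. The NDC80 difference was 0.56 ± 0.14 (1.47-fold; adjusted p = 0.017), and it was not called without calactin replicate 2 (0.51), calactin replicate 3 (0.51) or untreated replicate 3 (0.59), or with eBayes without a trend (0.56). Its 3 partners in the same complex were not called: NUF2 differed by -0.034 ± 0.13 (95% interval -0.33 to 0.26), SPC24 by -0.22 ± 0.10 (-0.45 to 0.012) and SPC25 by -0.15 ± 0.080 (-0.33 to 0.032). All SPC24 values with calactin lay below the untreated ones. The difference between NDC80 and its partners was not tested. CENPA, the histone H3 variant of centromeres, differed by 0.28 ± 0.14, the kinesin CENPE by 0.12 ± 0.18 and the kinetochore protein CENPF by -0.0020 ± 0.11, all with overlapping arrays. With the replicate number as a block, CENPA was called higher (adjusted p = 0.033).

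The chromosomal passenger complex places Aurora B on centromeres and the midzone, and of its 3 other subunits, 2 rose. BIRC5, or survivin, the subunit that binds chromatin, read 4899, 4739 and 4334 with calactin and 2984, 3093 and 3025 untreated. The calactin and untreated arrays were far apart, at 0.61 ± 0.067 (1.53-fold; adjusted p = 3.65e-04, the smallest among the members), and the call was kept in each alternative run. A dimmer BIRC5 probe set read 1421, 1394 and 1573 with calactin and 578, 571 and 613 untreated, which is 1.29 ± 0.083. That value is larger than those of the 2 brighter sets, 0.61 ± 0.068 and 0.54 ± 0.088; the difference between them was not tested. CDCA8, or borealin, read 1948, 2013 and 1986 with calactin and 1447, 1583 and 1449 untreated. Its groups were apart as well (0.41 ± 0.072; adjusted p = 0.0038), and the call was lost with hybridisation spike scaling (0.51). INCENP, the scaffold of the complex, was not called (-0.22 ± 0.14; 95% interval -0.54 to 0.091).

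Of the 6 spindle members, NUSAP1 rose. NUSAP1, which bundles microtubules around chromosomes, read 4839, 5395 and 5112 with calactin and 3628, 4526 and 3972 untreated. All calactin arrays were higher, the closest untreated array being the second (0.34 ± 0.088; adjusted p = 0.024). Its second probe set gave 0.55 ± 0.12. The NUSAP1 call was lost without calactin replicate 2 (0.30) or 3 (0.34) and without untreated replicate 1 (0.27) or 3 (0.33), and with hybridisation spike scaling (0.44) or eBayes without a trend (0.34). TPX2, DLGAP5 and ASPM, which act on spindle microtubules, were at 0.15, 0.18 and 0.25; their calactin arrays were all above the untreated ones without passing the threshold. ASPM was called with the replicate block (adjusted p = 0.019). HMMR, whose calactin arrays all lay below the untreated ones, and CKAP2, whose arrays overlapped, were at -0.18 and -0.14.

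Cytokinesis held 3 of 4 members called higher. ANLN encodes anillin, a scaffold of the contractile ring, and had the largest difference of the 48 in the chosen setting. It read 1838, 1898 and 2235 with calactin and 985, 1133 and 1258 untreated. The calactin arrays were all far above the untreated arrays (0.82 ± 0.11; 1.76-fold; adjusted p = 0.0011), and its second probe set gave 0.77 ± 0.096. RACGAP1, a subunit of centralspindlin at the midzone, read 3845, 4059 and 3834 with calactin and 2317, 2859.5 and 2619 untreated. Here too the groups were apart (0.59 ± 0.085; 1.51-fold; adjusted p = 0.0013). ANLN and RACGAP1 kept their call in each alternative run. RACGAP1 has 1 probe set, with an identifier that marks shared sequence, so the other probe set rules could not change its difference. PRC1, which crosslinks midzone microtubules, read 3537, 3589 and 3281 with calactin and 2960.2, 2662 and 3008 untreated. Its calactin arrays were higher by less (0.27 ± 0.074; adjusted p = 0.031), and it was not called when calactin replicate 1 (0.255) or 2 (0.245) was dropped, or untreated replicate 1 (0.29) or 2 (0.215), with hybridisation spike scaling (0.37) or eBayes without a trend (0.27). ECT2, the exchange factor that activates RhoA at the midzone, was not called (-0.12 ± 0.10).

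None of the 6 condensin and topoisomerase members was called, though 2 groups of calactin arrays lay wholly above the untreated ones and 1 wholly below. At an unadjusted p under 0.05 in limma, 3 were higher (NCAPG, SMC4 and TOP2A) and 1 lower (NCAPD2). At that looser threshold 19 of the 48 members were higher and 4 lower, and 1668 of all 19775 genes were higher and 4434 lower. TOP2A, the topoisomerase that untangles sister chromatids, read 4611, 4346 and 3829.5 with calactin and 3727, 3825 and 3682 untreated. The lowest calactin array was just above the highest untreated array, and the difference was 0.18 ± 0.078 (95% interval 0.0044 to 0.36; adjusted p = 0.15). NCAPG, a condensin I subunit, differed by 0.41 ± 0.13 with an adjusted p of 0.053, just over the threshold. NCAPD2, a second condensin I subunit, lay the other way (-0.30 ± 0.11; adjusted p = 0.091). With the replicate number as a block, NCAPG and SMC4 were called higher (adjusted p = 0.0040 and 0.040) and NCAPD2 lower (adjusted p = 0.012). SMC4 and SMC2, the pair of ATPases of condensin, were at 0.22 ± 0.083 and -0.16 ± 0.093. A dim SMC4 probe set, with a mean intensity of 151.7 and an identifier that marks shared sequence, was called higher (0.54 ± 0.13). The remaining SMC4 probe set, with that mark too and a mean of 3180, was not called (0.11 ± 0.068). The other SMC2 probe set was called lower (-0.44 ± 0.10). SMC2 itself was called lower when its probe sets were averaged (-0.30) and when unshared probe sets were taken first (-0.44), and it read 0.42 with poly-A spike scaling. The remaining condensin I subunit, NCAPH, overlapped between the groups (0.14 ± 0.10).

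**Figure D3:**
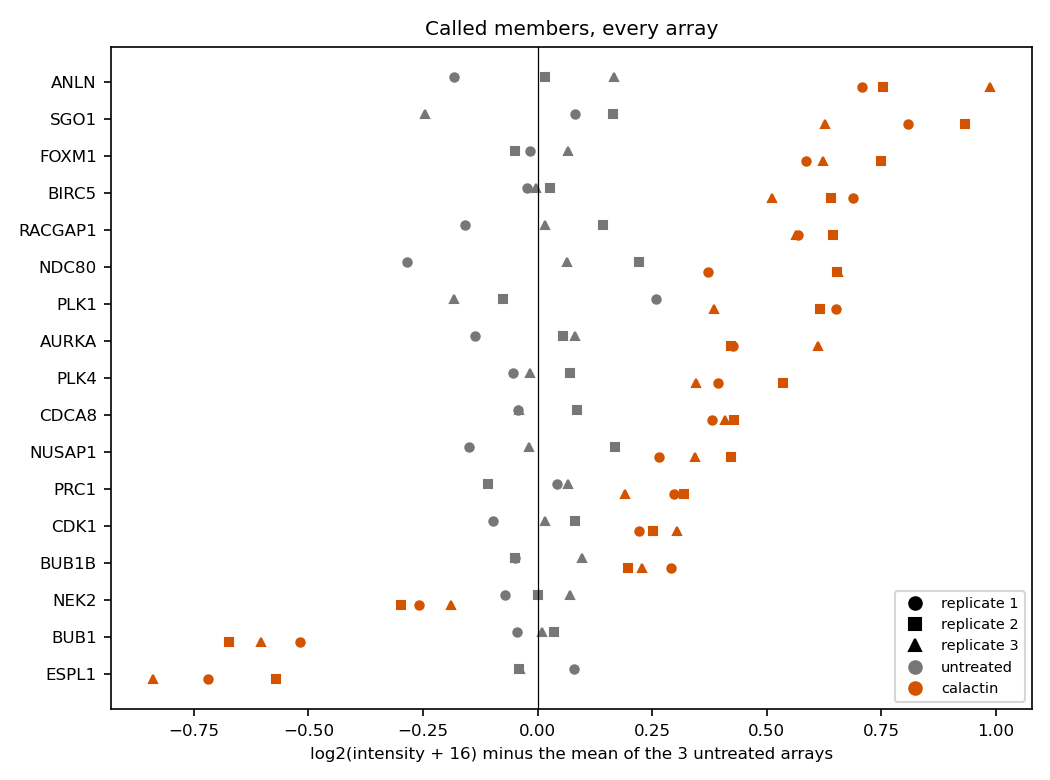
Every array of the 17 called members, as log2(intensity + 16) minus the mean of the 3 untreated arrays. Grey symbols are untreated and orange symbols calactin arrays; circles, squares and triangles are replicates 1, 2 and 3. The orange symbols lie wholly to the right of the grey ones for 14 members and wholly to the left for NEK2, BUB1 and ESPL1, on the deposited scale; with poly-A spike scaling NEK2 was higher.

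The 48 members had 97 probe sets, and 28 members had several. Of the 97, 22 were called higher and 9 lower, when 4.53% and 12.5% of all 41091 single-symbol probe sets were. CENPA and CKAP2 had further probe sets that also carry other symbols, which were not used.

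**Figure D4:**
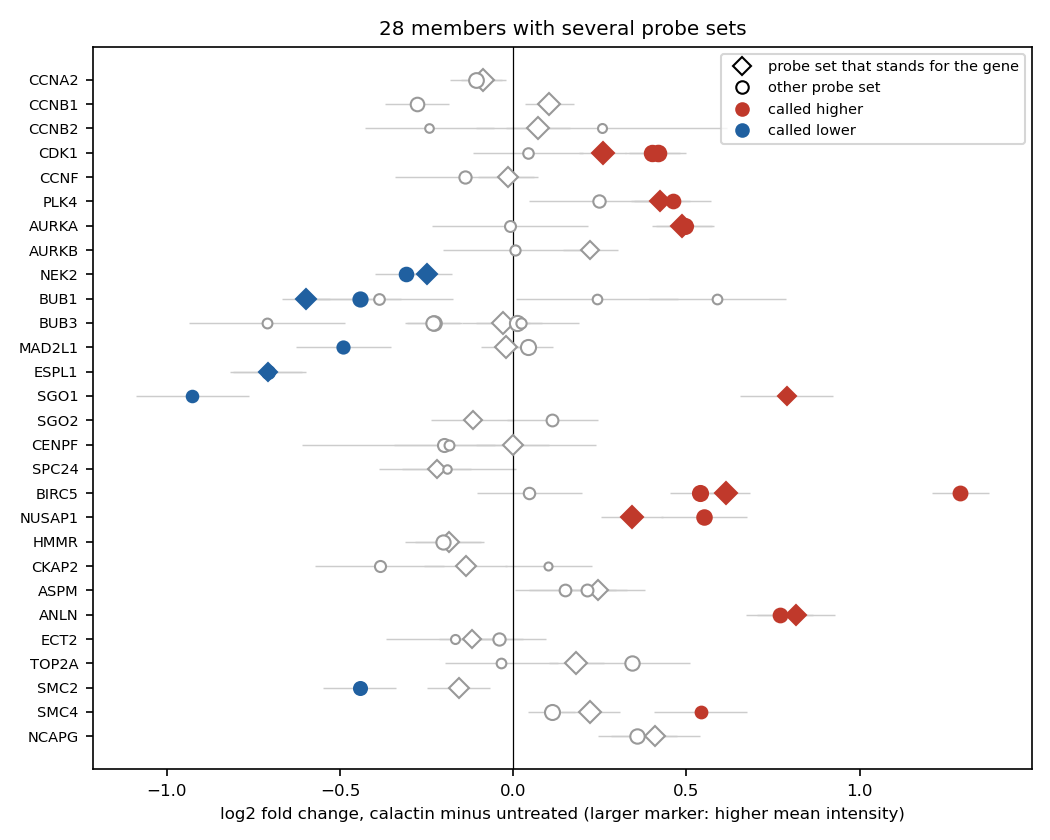
Differences of every probe set of the 28 members with several, calactin minus untreated in log2(intensity + 16), with standard errors. Diamonds are the probe sets that stand for the gene, circles the others, and marker size grows with mean intensity; red was called higher and blue lower over 41091 probe sets. SGO1 has a red and a blue symbol on opposite sides of 0, and the BIRC5 circle at 1.29 is the farthest to the right.

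Taken by replicate number, 23 of 48 members were higher with calactin in all 3 pairs (47.9%) and 9 lower (18.8%), while 18.1% and 33.7% of all genes were. The arrays of a number deviated together from their group means (correlations 0.544, 0.409 and 0.345), so the numbers were taken as pairs in these counts and in the replicate block. The chosen fit did not use the pairs. With the replicate number as a block, 18 members were called higher and 4 lower, when 7.09% and 20.2% of all genes were. The members' median was 0.107 to 0.117 above the untreated mean in the 3 calactin arrays, and -0.077, 0.050 and 0.019 in untreated replicates 1, 2 and 3. Both arrays numbered 3 carried less poly-A spike, at -2.68 and -2.25 log2 units from the mean of the 6 arrays, when the other 4 were at 0.73 to 1.83. With replicates 1 and 2 alone, 6 members were called higher (ANLN, SGO1, FOXM1, BIRC5, RACGAP1 and AURKA) and 2 lower (BUB1 and ESPL1). Calls fell across the series there, to 1.68% of all genes higher and 7.09% lower. Without calactin replicate 2, 8 members were called higher and 2 lower, when 3.28% of all genes were higher and 12.8% lower.

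**Figure D5:**
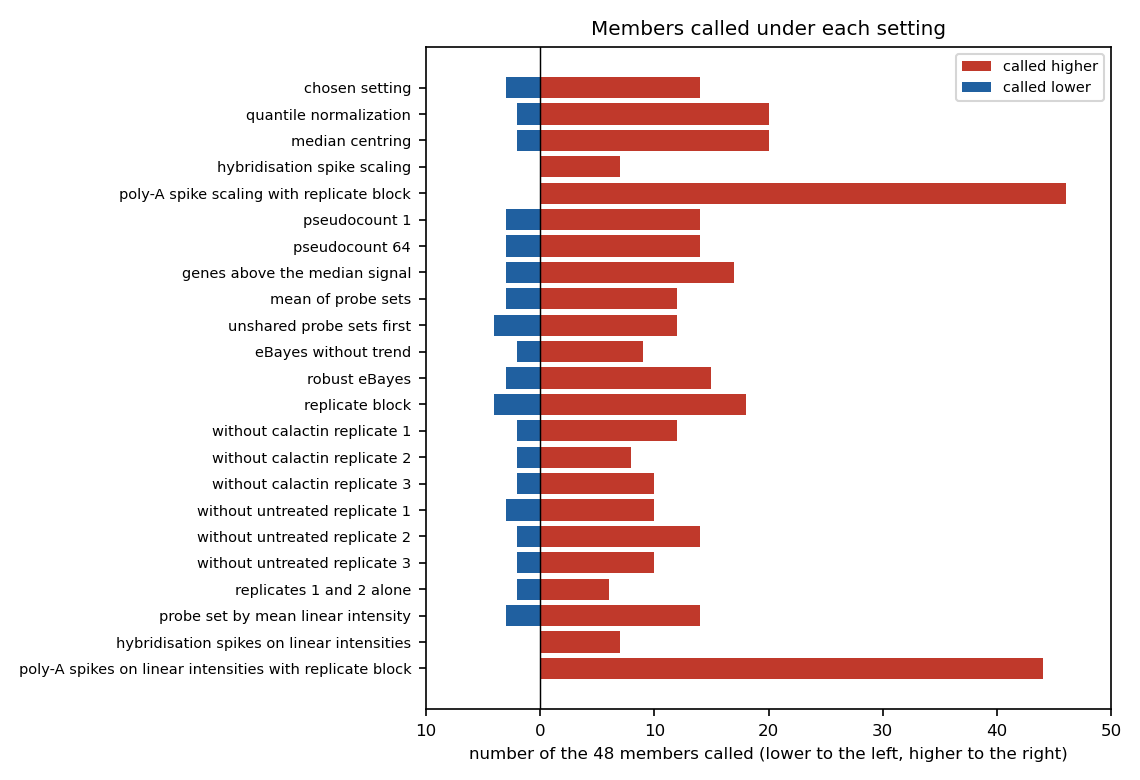
Number of the 48 members called under each setting, with bars to the right for members higher with calactin and bars to the left for members lower. The chosen setting has 14 and 3; between 6 and 20 were higher and 0 to 4 lower in all alternatives other than the poly-A spike scalings, which moved all genes up and gave 46 and 44 higher and 0 lower.

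Among the members with CHR letters, 10 of 30 were called higher and 2 lower, with a median difference of 0.179. Of the 11 with a window and no CHR letters, 0 were called higher and 1, NEK2, lower, with a median of 0.026. All 10 members called higher that had a window held CHR letters, as did 18 of 28 uncalled members with one. Of all genes, 4.93% were called higher and 16.5% lower, and calls among other genes with CHR letters were not counted. Only the exact letters TTTGAA and TTCGAA were searched, so the 11 are not known to lack variant forms. These counts are a description; the 4 members FOXM1, AURKA, BIRC5 and RACGAP1 were called higher and had no window.

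Other genes of mitosis, 138 measured genes in 9 groups that are no members, were called in both directions. Of them, 25 were higher (18.1%) and 29 lower (21%), against 4.93% and 16.5% of all genes. Their median was 0.024. With the replicate block, 38 were called higher and 34 lower, when 7.09% and 20.2% of all genes were. The balance turned with quantile normalization (41 higher and 23 lower) and median centring (40 and 23). Of all genes, 8.44% were higher and 12.1% lower with quantile normalization, and 7.32% and 13.6% with median centring. The 6 with the smallest p among those higher were DEPDC1, a protein needed for mitotic progression, at 1.04 ± 0.11; CDC25A, the phosphatase that activates CDKs, at 0.97 ± 0.12; TFDP2, an E2F partner, at 0.61 ± 0.076; ARPP19, an inhibitor of the phosphatase PP2A-B55 in mitosis, at 0.54 ± 0.072; the kinesin KIF18A at 0.81 ± 0.11; and the Hippo kinase LATS1 at 0.79 ± 0.11. The 6 lower genes with the smallest p fell by more than any member in the chosen setting. TRIP13, an ATPase that remodels the checkpoint protein MAD2, was at -1.27 ± 0.090, CEP55, which recruits the abscission machinery, at -1.32 ± 0.11, MIS18A, which primes centromeres for CENPA, at -1.16 ± 0.11, E2F5 at -1.14 ± 0.13, the checkpoint protein ZW10 at -1.05 ± 0.12 and CDC16, a subunit of the anaphase-promoting complex, at -0.87 ± 0.10. When all probe sets of a gene were averaged, LATS1 (0.30) and E2F5 (-0.46) were not called. LATS1 was also not called with replicates 1 and 2 alone (0.75), nor CDC16 with poly-A spike scaling on linear intensities (-0.30).

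By group, set beside 4.93% higher and 16.5% lower of all genes, genes of mitotic entry gave 7 higher and 3 lower of 14 (50% and 21.4%). The anaphase-promoting complex and its regulators gave 1 higher and 4 lower of 20 (5% and 20%), near the shares of all genes. Centrosome and spindle genes gave 1 higher and 7 lower of 20 (5% and 35%). In the group of 11 mitotic kinesins 3 (27.3%) were called higher and 0 lower, while KIF2A, a kinesin listed with the centrosome and spindle genes, was called lower (-0.49). Cohesin genes gave 3 higher and 1 lower of 13 (23.1% and 7.69%), and the 28 other kinetochore genes 5 higher and 7 lower (17.9% and 25%). Other genes of cytokinesis and mitotic exit gave 3 higher and 3 lower of 11 (27.3% each), with a median of 0.045. Those of condensin II and the chromosome surface gave 0 higher and 1 lower of 7 (0% and 14.3%). Genes of MuvB, B-MYB and DREAM, the regulators of CHR promoters, gave 2 higher and 3 lower of 14 (14.3% and 21.4%). The 2 higher were TFDP2 (0.61) and the NF-Y subunit NFYC (0.64), and the 3 lower were E2F5 (-1.14), RBL2, or p130 (-0.79), and LIN37 (-0.76). RBL1, the p107 relative of p130, was not called (0.41), with every calactin array higher. NFYC, RBL2, LIN37, RBL1 and KIF2A were picked to be named after their values were seen.

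The G1/S and replication list gave 7 higher (18.9%) and 5 lower (13.5%) of 37, against 4.93% and 16.5% of all genes, with a list median of 0.070. With the replicate block the list gave 11 higher and 6 lower, when 7.09% and 20.2% of all genes were. E2F1, an activator of S phase genes, had the largest rise in it (1.71 ± 0.16), followed by E2F2 (1.04 ± 0.11) and E2F3 (0.70 ± 0.089). The helicase subunits MCM5 and MCM3 and the helicase component GINS2 were at 0.57 ± 0.088, 0.57 ± 0.094 and 0.31 ± 0.084. MCM5 and MCM3 kept their call in all 23 alternatives, while GINS2 lost it in 11. These include the fits without calactin replicate 2 (0.23) or 3 (0.34) and without untreated replicate 1 (0.31), 2 (0.31) or 3 (0.32), hybridisation spike scaling (0.41), and taking unshared probe sets first (0.19). PRIM1, the primase subunit, fell most (-1.32 ± 0.092), and CHAF1B, RFC4, SLBP and POLA1 were at -0.47 ± 0.13, -0.36 ± 0.095, -0.34 ± 0.078 and -0.33 ± 0.092. PRIM1 kept its call in all 23 alternatives, and those of CHAF1B, RFC4, SLBP and POLA1 held in 11, 12, 13 and 10. The calls lower in this list were 1 without calactin replicate 1, 1 without calactin replicate 3, 1 without untreated replicate 3 and 3 without untreated replicate 2. In those fits 12.9%, 13.1%, 12.1% and 15.3% of all genes were lower.

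Across the series, median intensity was 40.9 to 42.2 in the calactin arrays and 44.2 to 46.1 in the untreated ones. K562 markers were present: the embryonic globins HBZ and HBE1 and the transferrin receptor TFRC were bright in every group, though TFRC (-0.55), GATA1 (-0.86), LMO2 (-1.69) and NFE2 (-0.50) were called lower and TAL1 higher (0.92), of 9 measured. Of 13 markers of T cells, B cells, monocytes, fibroblasts and epithelium, 0 were called higher and 2 (15.4%) lower, CD3D and COL1A2. That share is near the 16.5% of all genes that were lower. Of the 9 K562 markers, 11.1% were higher and 44.4% lower, against 4.93% and 16.5% of all genes. CD3D, EPCAM, KRT8, KRT19 and COL1A1 were well above the array median in both groups. Their part in the members' values was not tested.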

How the data were processed

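Per the labels' protocols, Trizol RNA was labelled by the standard Affymetrix protocol. The authors deposited 1 linear intensity per probe set and array; summary, background correction and any scaling were not given in the sources used here. Of 54675 probe sets, 41091 carried 1 gene symbol, and the one with the highest mean log2 value stood for its gene (19775 genes). limma 3.58.1 in R 4.3.3 (lmFit, eBayes with a trend) was run on log2(intensity + 16) without further normalization, for calactin against untreated arrays, and was tested on simulated data. In that simulation 19 of 100 genes given a log2 change of 0.5 were called, and 78 of 100 genes given a change of 1. The number of arrays limits the precision, so a gene that was not called may still have changed. Values in every array are given for called members whose groups of arrays did not overlap, for CCNB1, CDK1, PLK1, AURKB, TOP2A and CCNA2, and for members with opposing probe sets; other lists name up to 6 called genes per direction by smallest p. The members, the lists and this rule were chosen with earlier results of these data known. A gene was first represented by its probe set of highest mean linear intensity; this was changed after its counts were seen to differ from those of an earlier account of these data, and it also gave 14 members higher and 3 lower. Spike scaling was changed from linear intensities to a log2 shift after its counts were seen. Replicate numbers come from the sample titles and were taken as pairs because same-numbered arrays deviated together. The chosen fit left them unpaired, and the replicate block was an alternative. Promoter shares were first counted per window (CHR letters in 64.0% of members' windows, 16.4% of all) and then per gene. The distance of 50 bases, the printed 100 bases and the number of stretches were set after the matches were seen. Alternatives were quantile normalization, median centring, spike scaling, pseudocounts of 1 and 64, bright genes alone, other probe set rules, each probe set on its own, other variance priors, the replicate block and leaving out each array; replicates 1 and 2 alone and the earlier choices were added after seeing the data. Plots were drawn with matplotlib 3.10.9.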

Additional observations from a re-analysis of the deposited data

Results flagged for a closer look

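Outside the gene comparison, 17 control probe sets for human sequences were read. A pair of them, AFFX-M27830_5_at and AFFX-M27830_M_at, which query 28S ribosomal RNA, had every calactin array above every untreated array and a mean at least 2-fold higher. AFFX-M27830_5_at averaged 1020 ± 452 with calactin and 414.2 ± 57 untreated (SD, n = 3), and AFFX-M27830_M_at averaged 10110 ± 3027 and 732 ± 280. Their part in the members' values was not tested.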

How the results depend on the processing

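Of 17 called members, 4 (FOXM1, BIRC5, ANLN and RACGAP1) kept their call in all 23 alternatives and 10 in every fit without 1 array. FOXM1 and RACGAP1 have 1 probe set each, so the probe set rules could not change their differences. Leaving out 1 array gave 8 to 14 members higher, 2 to 3 lower and a median of 0.094 to 0.159. In these fits 3.26% to 5.13% of all genes were higher and 12.1% to 15.3% lower. The wider mitosis list gave 18 to 26 higher and 21 to 29 lower, and the G1/S and replication list 5 to 7 and 1 to 5. The median of all genes moved from -0.059 to 0.021 with quantile normalization, 0.028 with median centring, 0.042 with hybridisation spikes and 0.514 with poly-A spikes, and the share of calls that were higher from 23% to 41%, 35%, 28.6% and 91.7%.

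Quantile normalization gave 20 members higher and 2 lower, a member median of 0.234, 41 wider mitosis genes higher and 23 lower, and 11 G1/S genes higher and 3 lower. Median centring gave 20 and 2 members, 0.212, 40 and 23, and 13 and 1. Of all genes, 8.44% were higher and 12.1% lower with quantile normalization, and 7.32% and 13.6% with median centring. Hybridisation spike scaling gave 7 members higher and 0 lower, 0.226, 15 wider mitosis genes higher and 10 lower, and 1 G1/S gene lower; on linear intensities, added later, it gave 7 and 0, 0.224, 16 and 12, and 1. Poly-A spike scaling with the replicate block gave 46 members higher and 0 lower, 0.698, 105 wider mitosis genes higher and 7 lower, and 30 G1/S genes higher and 1 lower; on linear intensities it gave 44 and 0, 0.679, 96 and 7, and 30 and 1. eBayes without a trend gave 9 members higher and 1 G1/S gene lower, with 3.99% of all genes higher and 14.6% lower. Replicates 1 and 2 alone gave 6 members higher, 15 wider mitosis genes higher and 11 lower, and 1 G1/S gene lower; fewer samples were tested. The replicate block gave 18 members higher and 4 lower, with 7.09% of all genes higher and 20.2% lower against 4.93% and 16.5% without it, 38 wider mitosis genes higher and 11 G1/S genes higher; among the named genes it changed only the calls of CENPA, ASPM, SMC4, NCAPG and NCAPD2. The cause of these changes was not tested.

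Signs turned with poly-A spike scaling, which moves all genes up, to CCNA2 0.487, CCNF 0.558, NEK2 0.324, BUB3 0.543, MAD2L1 0.553, SGO2 0.456, CENPF 0.571, NUF2 0.539, SPC24 0.352, SPC25 0.424, INCENP 0.348, HMMR 0.389, CKAP2 0.436, ECT2 0.455, SMC2 0.416, NCAPD2 0.269, SLBP 0.237, RFC4 0.215, POLA1 0.243, CHAF1B 0.103. On linear intensities the values were CCNA2 0.481, CCNF 0.540, NEK2 0.317, BUB3 0.539, MAD2L1 0.549, SGO2 0.434, CENPF 0.562, NUF2 0.525, SPC24 0.333, SPC25 0.416, HMMR 0.383, CKAP2 0.423, ECT2 0.434, SMC2 0.402, SLBP 0.233, RFC4 0.210, POLA1 0.218, CHAF1B 0.085. Away from spikes, SGO1 turned to -0.069 with the mean of its probe sets and AURKA to -0.008 with unshared probe sets first. A gene called in neither setting was not counted as turned when its sign changed. Of 1104 values of members under the alternatives, 939 kept their side of the threshold without turning in that sense, 74 lost the call, 59 gained one and 32 turned; of 31 uncalled members, 10 were called in an alternative other than poly-A scaling. A median counted as moved beyond 0.047, the SD of the arrays' medians pooled over both groups; the SD of the calactin arrays alone was tried first and replaced after its labels were seen. Probe signals over background are not given, so dim probe sets have no floor.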
